A study of Mus musculus with 35 samples.

Results

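The 8 genes described here take part in, or regulate, the handling of cholesterol and lipoproteins by macrophages: Abca1, Abcg1, Apoe, Pltp, Lpl, Mylip, Nr1h3 and Nr1h2. They were chosen by symbol, and all 8 were found, each with a single identifier, among the 47069 Ensembl identifiers for which the authors deposited FPKM (fragments mapped to a gene, scaled by its transcript length and by the size of the library). All 8 also entered the tests, which took in the 11354 genes whose FPKM averaged 1 or more over the libraries. The libraries came from bone marrow-derived macrophages (BMDMs) of C57BL/6 mice, grown in medium with 30% L929 conditioned medium. BMDMs of wild-type (WT) mice and of mice labelled AMPKa1-/- were exposed for 24 h to 1 of 6 treatments, namely vehicle (DMSO), dexamethasone (Dex, a synthetic glucocorticoid, 100 nM), lipopolysaccharide (LPS, the endotoxin of Gram-negative bacteria, 100 ng/ml), LPS + Dex, damage-associated molecular patterns (DAMPs, 1 ug/ml) or DAMPs + Dex. Each group had 3 libraries except WT LPS, which had 2 (replicates 2 and 3), giving 17 WT libraries and 18 labelled AMPKa1-/-. The labels do not say which molecules the DAMPs were or which exons the AMPKa1 allele lacks. The spacing of low values put the libraries at 15837203 to 31955298 fragments, and the estimated fragments behind the 8 genes ran from 507 to 580873 per library.

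Macrophages take up lipoproteins and dead cells and must dispose of the cholesterol that comes with them. Oxysterols made from that cholesterol activate the liver X receptors, which pair with retinoid X receptors and switch on transporters that hand cholesterol to extracellular acceptors. In the opposite state, when sterols are scarce, the transcription factor SREBP2 turns on the genes of sterol uptake and synthesis. The members fall into 4 roles. Abca1 and Abcg1 are the ABC transporters that export cholesterol to lipid-poor apolipoproteins and to HDL. Apoe is a secreted cholesterol acceptor, Pltp transfers phospholipids between lipoproteins, and Lpl, lipoprotein lipase, hydrolyses their triglycerides. Mylip (also called IDOL) is a ubiquitin ligase that limits lipoprotein uptake. Nr1h3 and Nr1h2 encode the liver X receptors LXRa and LXRb.

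The promoters of an exporter and of the acceptor it loads are shown because both genes are textbook LXR targets, yet on top of LPS Dex lowered Abca1 in both genotypes and gave no called change of Apoe. RefSeq (GRCm38.p6) gave 9 start-site windows for 6 of the 8 genes, and Abcg1 and Lpl were not among them. Below are the 250 bases before the start site, 5' to 3' on the coding strand, of Abca1 (chr4:53159896-53160145, minus strand) and Apoe (chr7:19699189-19699438, minus strand). Capitals mark the glucocorticoid receptor half-site AGAACA and, in Abca1, the 16 bases that lie closest to a direct repeat of AGGTCA with 4 bases between.

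Abca1: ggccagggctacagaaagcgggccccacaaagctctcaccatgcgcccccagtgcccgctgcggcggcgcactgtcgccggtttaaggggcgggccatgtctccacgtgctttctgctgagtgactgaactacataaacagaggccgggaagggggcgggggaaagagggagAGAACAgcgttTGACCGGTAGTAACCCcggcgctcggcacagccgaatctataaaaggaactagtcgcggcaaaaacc
Apoe: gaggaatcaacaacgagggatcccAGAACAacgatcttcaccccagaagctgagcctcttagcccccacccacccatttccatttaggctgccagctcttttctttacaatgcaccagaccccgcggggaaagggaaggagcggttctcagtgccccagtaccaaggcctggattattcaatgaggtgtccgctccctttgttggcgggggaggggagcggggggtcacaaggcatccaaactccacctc

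On either strand, no member's window held 2 LXR half-sites of the forms searched in direct repeat with 4 bases between. The half-site was taken as AGGTCA or as a close form of that hexamer. The close forms allowed were AGTTCA, where the third base differs, then in the same way AGGTTA, where the fifth does, and at the first base the form GGGTCA. That pattern was in 28 of 32851 RefSeq windows, or 0.0852%. A full glucocorticoid element (AGAACA and TGTTCT with 3 bases between) was in 3 windows, or 0.00913%, and in none of the members'. The single half-site AGAACA, on either strand, was in 16.1% of all windows and in 2 of the 9 members' windows, at position -78 of Abca1 and -226 of Apoe, both counted from the start site. The Abca1 stretch in capitals, from -67 to -52 on the opposite strand, differed from the AGGTCA repeat at 3 of its 12 half-site bases, and 18.5% of all windows held a stretch with at most 3 mismatches. That looser search was added after the stricter one had found nothing, and a match of letters is a description of the sequence only. Neither hexamer of the Abca1 stretch was among the half-site forms allowed, so the stricter search could not find it. A window without those forms is thus not shown to lack an LXR element.

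Prkaa1, which encodes the AMPKa1 protein itself, did not separate the genotypes. Its FPKM was 15.9, 11.8 and 15.3 in the WT vehicle libraries and 14.8, 16.5 and 15.4 in those labelled AMPKa1-/-. The WT values were 26.1, 23.2 and 19.1 with Dex, 15.3 and 10.4 with LPS, 20.5, 13.7 and 8.59 with LPS + Dex, 17.9, 12.4 and 11 with DAMPs and 20.9, 12.5 and 19.5 with DAMPs + Dex. Those labelled AMPKa1-/- had 21.5, 14 and 20.4 with Dex, 9.05, 11.2 and 10.5 with LPS, 12.5, 12.9 and 9.65 with LPS + Dex, 10.7, 15.8 and 16.4 with DAMPs and 21.8, 20.02 and 24 with DAMPs + Dex. The ranges of the 2 genotypes overlapped in all 6 treatments, and in vehicle the log2 fold change was 0.12 (SE 0.23, limma, adjusted p = 1). A value summed over the whole gene cannot show the loss of a few exons, so it leaves the labels unchecked, and the genotype is written here as labelled. Prkaa2, the other catalytic subunit, was at most 0.130 FPKM in any library.

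The treatments left their usual marks in both genotypes. Of 10 genes known to be induced by glucocorticoids, 9 rose with Dex in WT, where 30.9% of all tested genes rose or fell. In libraries labelled AMPKa1-/- 9 rose as well, against 27.9%. Fkbp5 led with a log2 fold change of 6.88 in WT (SE 0.16). All 10 genes of an LPS-induced list rose with LPS in both, among them Il1b with 11.33 in WT (SE 0.67). Of all tested genes, 55.7% rose or fell with LPS in WT and 64.3% in those labelled AMPKa1-/-. Here and below, "rose" and "fell" mean an adjusted p under 0.05 by limma on log2(FPKM + 1). The adjustment was over all 11354 genes by the Benjamini-Hochberg method. In these bulk libraries fewer cells and less RNA per cell cannot be told apart. Comparisons against the same vehicle or LPS libraries share them, so they are not independent of each other.

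How often the 8 genes were called has to be read against how often any gene was. With Dex alone, 3 of the 8 were called in WT, where 30.9% of all tested genes were, and 4 in libraries labelled AMPKa1-/-, against 27.9%. With LPS alone the counts were 6 in WT against 55.7% and 7 in those labelled AMPKa1-/- against 64.3%. When Dex was added to LPS, 5 were called in WT against 34.1% and 5 in those labelled AMPKa1-/- against 37.7%. The combination against vehicle called all 8 in WT, against 54.2%, and 6 in those labelled AMPKa1-/-, against 57.4%. DAMPs moved few genes of any kind: 1 member in WT against 2.01% and 2 in those labelled AMPKa1-/- against 4.13%. Dex on top of DAMPs called 4 members in WT against 24.3% and 4 in those labelled AMPKa1-/- against 25.3%. The median log2 fold change of all tested genes was -0.19 in WT and -0.30 in libraries labelled AMPKa1-/- for LPS against vehicle. It was -0.23 and -0.28 for LPS + Dex against vehicle, and a fall of a member smaller than that is no fall relative to the middle of the genes. Of the 8 calls of LPS + Dex against vehicle in WT, that of Nr1h2 (-0.39) was lost once the libraries were centred on one median (-0.17).

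**Figure D1:**
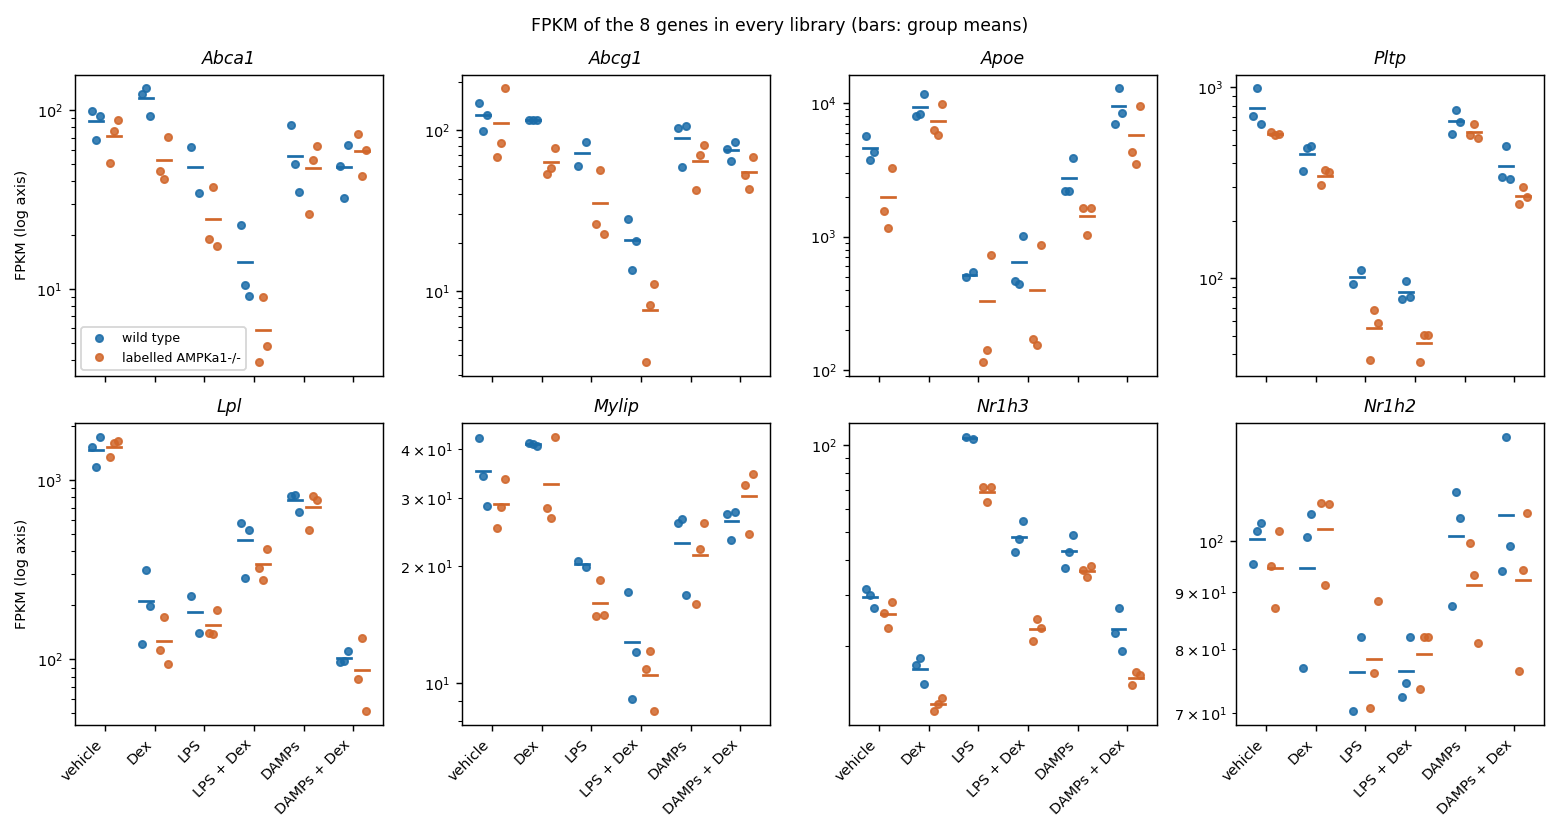
FPKM (log axis) of each of the 8 genes in all 35 libraries, by treatment, with a point per library and a bar at the group mean (blue: WT; orange: labelled AMPKa1-/-). Abca1 and Abcg1 reach their lowest values with LPS + Dex, Lpl is low with Dex, LPS and DAMPs + Dex, and Nr1h3 is highest with LPS.

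The cholesterol exporters Abca1 and Abcg1 were lowest when LPS and Dex were combined. Abca1 (ENSMUSG00000015243, chr4:53030787-53159895, minus strand) had 98.6, 68.2 and 93 FPKM in WT vehicle, 124, 133 and 93 with Dex, 62.4 and 34.3 with LPS and 22.8, 10.5 and 9.11 with LPS + Dex. In libraries labelled AMPKa1-/- it had 50.6, 76.4 and 88.4 in vehicle, 45.6, 41.2 and 70.6 with Dex, 19.1, 37.1 and 17.3 with LPS and 3.87, 9.0 and 4.81 with LPS + Dex. In each genotype every LPS + Dex library lay below every LPS library, whereas Dex and vehicle overlapped. Adding Dex to LPS lowered mean Abca1 FPKM 3.42-fold in WT (log2 fold change -1.75, SE 0.43, adjusted p = 0.0019) and 4.16-fold in those labelled AMPKa1-/- (-1.88, SE 0.38, adjusted p = 2.50e-04). Without WT LPS replicate 2, which leaves a lone WT LPS library whose spread is borrowed from the remaining groups, the WT change was -1.33 and no longer passed.

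Abcg1 (ENSMUSG00000024030, chr17:31057675-31117988, plus strand) followed the same course. It had 147, 99 and 125 FPKM in WT vehicle, 115, 116 and 115 with Dex, 60.1 and 84.3 with LPS and 28, 13.6 and 20.4 with LPS + Dex. For libraries labelled AMPKa1-/- the values were 68.1, 82.8 and 182 in vehicle, 53.6, 58.2 and 77.4 with Dex, 26.2, 56.2 and 22.7 with LPS and 3.61, 8.15 and 11.1 with LPS + Dex. Vehicle replicate 3 of the latter stood far above the other 2 vehicle libraries, and the LPS + Dex libraries again lay below all LPS libraries. The fall with Dex on LPS was 3.49-fold in WT (-1.79 on the log2 scale, SE 0.40, adjusted p = 8.68e-04) and 4.6-fold in those labelled AMPKa1-/- (-2.06, SE 0.36, adjusted p = 3.75e-05).

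LPS alone lowered both exporters in libraries labelled AMPKa1-/-, Abca1 by 2.93-fold (-1.56, SE 0.38) and Abcg1 by 3.17-fold (-1.61, SE 0.36). In WT the LPS libraries also lay below the vehicle libraries, but the log2 differences of -0.87 for Abca1 and -0.77 for Abcg1 missed the threshold (adjusted p = 0.087 and 0.11) in the fit of all groups. A fit of the compared groups alone called both in WT, with adjusted p = 0.029 and 0.017. Abcg1 was also called with WT libraries only (adjusted p = 0.031). The Abca1 difference was -1.29 without WT LPS replicate 2, but that leaves only the lower LPS library (34.3 FPKM, the other having 62.4). Its size in WT thus depends on which LPS library is kept. Relative to vehicle, LPS + Dex left mean Abca1 6.13-fold lower in WT and 12.2-fold lower in those labelled AMPKa1-/-, and mean Abcg1 5.98-fold and 14.6-fold lower, each past the threshold. With DAMPs, Abca1 stood at 82.5, 49.8 and 34.6 FPKM in WT and 26.2, 52.7 and 62.9 in those labelled AMPKa1-/-, with DAMPs + Dex at 48.9, 32 and 64.1 and 73.3, 43 and 59.95. Abcg1 stood at 103, 58.9 and 106 and 42.2, 70.4 and 81 with DAMPs, and at 75.8, 64.1 and 84.7 and 52.8, 43 and 68.1 with DAMPs + Dex. DAMPs overlapped vehicle and DAMPs + Dex overlapped DAMPs for both genes, and neither exporter passed the test for DAMPs or for Dex on DAMPs.

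The secreted acceptor Apoe (ENSMUSG00000002985, chr7:19696109-19699188, minus strand) was the most abundant of the 8 genes per length in all 12 groups. It had 5673, 3762 and 4332 FPKM in WT vehicle, 8025, 8268 and 11844 with Dex, 495 and 540.1 with LPS and 463, 441 and 1018 with LPS + Dex. Those labelled AMPKa1-/- had 1569.9, 1158 and 3262 in vehicle, 6333, 5768 and 9862 with Dex, 114, 141 and 728 with LPS and 169.9, 155 and 867 with LPS + Dex. Among those labelled AMPKa1-/-, replicate 3 was the highest library in 5 of the 6 treatments, and its LPS value exceeded both WT LPS values. LPS lowered mean Apoe 8.87-fold in WT (-3.13 on the log2 scale, SE 0.64, adjusted p = 1.57e-04) and 6.09-fold in those labelled AMPKa1-/- (-2.99, SE 0.58, adjusted p = 5.63e-05). Without LPS replicate 3 the fall labelled AMPKa1-/- was 15.7-fold, above that of WT. Dex added to LPS gave log2 differences of 0.20 in WT (SE 0.64, adjusted p = 0.85) and 0.32 in those labelled AMPKa1-/- (SE 0.58, adjusted p = 0.71), within the spread of the libraries.

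Without LPS, every Dex library had more Apoe than every vehicle library of its genotype. The rise passed in libraries labelled AMPKa1-/- (3.67-fold, log2 fold change 1.97, SE 0.58, adjusted p = 0.011). In WT the mean ratio was 2.04 (1.03, SE 0.58, adjusted p = 0.17), and the call depended on the fit: with WT libraries only, adjusted p was 0.032, with the compared groups only 0.013, and with a block for the replicate number 0.031. Leaving out vehicle replicate 2 or Dex replicate 3 labelled AMPKa1-/- ended the call there (log2 1.65 and 1.74). On DAMPs, Dex raised Apoe in both genotypes. WT had 2199, 2216 and 3915 FPKM with DAMPs and 7032, 12988 and 8502 with DAMPs + Dex, and those labelled AMPKa1-/- had 1639.7, 1021 and 1631 and 4353, 3513 and 9584. The groups did not overlap, with 3.42-fold in WT (1.78, SE 0.58, adjusted p = 0.023) and 4.07-fold in those labelled AMPKa1-/- (1.91, SE 0.58, adjusted p = 0.014). The call was lost without DAMPs replicate 1, DAMPs replicate 2 or DAMPs + Dex replicate 2 in WT, and without DAMPs replicate 2 or DAMPs + Dex replicate 3 in those labelled AMPKa1-/-, with log2 values of 1.48 to 1.69. The summed fibroblast markers, given with the other markers further on, were also higher without overlap in Dex against vehicle labelled AMPKa1-/- and in DAMPs + Dex against DAMPs in WT, and their part in the Apoe values was not tested. Without the filter on low genes the WT call on DAMPs was lost too (adjusted p = 0.06).

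Pltp (ENSMUSG00000017754, chr2:164839518-164857711, minus strand) fell with LPS and, less, with Dex alone. It had 703, 987 and 638 FPKM in WT vehicle, 363, 479.8 and 494 with Dex, 92.9 and 111 with LPS and 77.6, 96.5 and 79.4 with LPS + Dex. For libraries labelled AMPKa1-/- the values were 580.2, 560.3 and 570.3 in vehicle, 306, 370.3 and 358 with Dex, 37.5, 68 and 58.6 with LPS and 36.3, 50.5 and 50.5 with LPS + Dex. LPS lowered it 7.61-fold in WT (-2.89 on the log2 scale, SE 0.21, adjusted p = 4.42e-12) and 10.4-fold in those labelled AMPKa1-/- (-3.40, SE 0.19, adjusted p = 9.57e-15). Dex alone lowered it 1.74-fold and 1.65-fold, and Dex on DAMPs 1.71-fold and 2.16-fold, in WT and in those labelled AMPKa1-/- respectively. On top of LPS the Dex difference was -0.27 in WT (adjusted p = 0.36) and -0.23 in those labelled AMPKa1-/- (adjusted p = 0.39), and the groups overlapped. Of the 2562 exon bases of Pltp, 495 also belong to exons of Ctsa on the opposite strand, and whether the counting used strand is not given in the sources used here. Ctsa, the gene of the lysosomal enzyme cathepsin A, which was looked up after the values of Pltp were seen, had log2 differences of -1.41 with LPS in WT and -1.12 in those labelled AMPKa1-/-, of 0.10 and 0.22 with Dex, and of 0.72 and 0.59 with Dex on LPS. Those with LPS and with Dex on LPS passed and those with Dex alone did not, and the part of shared reads in the changes of Pltp was not tested.

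Lpl (ENSMUSG00000015568, chr8:68880491-68907448, plus strand) was lowered by each agent alone, yet was higher with both than with LPS alone. It had 1519, 1178 and 1737 FPKM in WT vehicle, 122, 315 and 199 with Dex, 227 and 139.7 with LPS and 572, 283 and 526 with LPS + Dex. Those labelled AMPKa1-/- had 1336, 1609 and 1653 in vehicle, 114, 173 and 94.2 with Dex, 139.8, 139 and 189 with LPS and 321, 279 and 415 with LPS + Dex. In both genotypes the LPS + Dex libraries lay between the LPS and the vehicle libraries without overlap. The fall with Dex was 6.97-fold in WT (-2.88, SE 0.31, adjusted p = 5.57e-08) and 12.1-fold in those labelled AMPKa1-/- (-3.62, SE 0.31, adjusted p = 7.86e-10). The fall with LPS was 8.06-fold and 9.83-fold (log2 -3.03 and -3.30, SE 0.35 and 0.31). Dex on LPS then raised it 2.51-fold in WT (1.30, SE 0.35, adjusted p = 0.0045) and 2.17-fold in those labelled AMPKa1-/- (1.11, SE 0.31, adjusted p = 0.0059). Without WT LPS replicate 3 the WT rise was 0.95 and did not pass.

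DAMPs gave Lpl values of 817, 824 and 667 FPKM in WT and 529, 811 and 769.96 in those labelled AMPKa1-/-, all below the vehicle libraries. The fall passed in those labelled AMPKa1-/- (2.18-fold, -1.14, SE 0.31, adjusted p = 0.032) and not in WT (-0.93, SE 0.31, adjusted p = 0.16), and the former rested on single libraries, since leaving out vehicle replicate 2 or 3, or DAMPs replicate 1 or 3, ended the call with log2 values of -1.22 to -0.95. The call was also lost with no filter, with libraries centred on one median and with no moderation of the variances (adjusted p = 0.078, 0.062 and 0.057). Dex on DAMPs took Lpl to 97, 98.5 and 111 FPKM in WT and 77.8, 131 and 51.5 in those labelled AMPKa1-/-. That fall was 7.54-fold (-2.90, SE 0.31) and 8.09-fold (-3.08, SE 0.31).

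Mylip (ENSMUSG00000038175, chr13:45389742-45412022, plus strand) was, like the exporters, lowest with LPS + Dex. It had 42.7, 34.2 and 28.6 FPKM in WT vehicle, 41.6, 41.3 and 40.7 with Dex, 20.6 and 19.99 with LPS and 17.2, 9.14 and 12 with LPS + Dex. For libraries labelled AMPKa1-/- the values were 25, 28.4 and 33.6 in vehicle, 28.2, 26.7 and 43.1 with Dex, 14.9, 18.4 and 15 with LPS and 10.9, 12.1 and 8.49 with LPS + Dex. LPS + Dex lay below LPS, and LPS below vehicle, in every library of both genotypes. LPS lowered it 1.73-fold in WT (-0.74, SE 0.24, adjusted p = 0.0086) and 1.8-fold in those labelled AMPKa1-/- (-0.81, SE 0.21, adjusted p = 0.0016). Dex on LPS lowered it 1.59-fold (adjusted p = 0.028) and 1.54-fold (adjusted p = 0.03), but without the filter on low genes these were 0.054 and 0.065, and in a fit of the compared groups alone the WT value was 0.14. The call was lost without LPS or LPS + Dex replicate 2 or 3 in WT (log2 -0.69 to -0.47), and without LPS replicate 2 or LPS + Dex replicate 1 or 3 in those labelled AMPKa1-/- (-0.61 to -0.45). The WT call with LPS was lost without vehicle replicate 1 (-0.60) or LPS replicate 3 (-0.72). With DAMPs it had 25.8, 26.4 and 16.9 FPKM in WT and 16, 22.2 and 25.9 in those labelled AMPKa1-/-, which did not pass (adjusted p = 0.19 and 0.37). With DAMPs + Dex it had 27.3, 23.4 and 27.6 in WT and 32.3, 24.2 and 34.6 in those labelled AMPKa1-/-. Dex on DAMPs gave log2 differences of 0.20 (adjusted p = 0.57) and 0.50 (adjusted p = 0.085), opposite in sign to Dex on LPS, and the latter passed without DAMPs replicate 3 (0.64) or DAMPs + Dex replicate 2 (0.65) labelled AMPKa1-/-.

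The LXR genes themselves behaved unlike each other and unlike the exporters. Nr1h3 (ENSMUSG00000002108, chr2:91184061-91202834, minus strand) had 31.6, 30.04 and 27.2 FPKM in WT vehicle, 17.2, 18.1 and 14.8 with Dex, 107 and 105 with LPS and 42.6, 47 and 54.6 with LPS + Dex. Those labelled AMPKa1-/- had 26, 23.1 and 28.4 in vehicle, 11.9, 12.6 and 13.2 with Dex, 71.7, 63.3 and 71.6 with LPS and 20.9, 24.8 and 23.2 with LPS + Dex. Replicates were close, LPS was highest and Dex lowest in both genotypes, and the only overlap among these 4 groups was that of vehicle with LPS + Dex labelled AMPKa1-/-. LPS raised it 3.57-fold in WT (1.80, SE 0.13, adjusted p = 2.47e-12) and 2.67-fold in those labelled AMPKa1-/- (1.38, SE 0.12, adjusted p = 4.03e-11). It was the only one of the 8 genes that rose with LPS, in the fit of all groups and under each alternative run.

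Dex lowered Nr1h3 on vehicle, on LPS and on DAMPs. The fall was 1.77-fold on vehicle in WT (-0.79, SE 0.12), 2.2-fold on LPS (-1.13, SE 0.13) and 1.87-fold on DAMPs (-0.88, SE 0.12). In those labelled AMPKa1-/- it was 2.06-fold (-0.98, SE 0.12), 3.0-fold (-1.55, SE 0.12) and 2.35-fold (-1.18, SE 0.12). All 6 falls passed, and in no case did the groups overlap. DAMPs alone gave 37.3, 42.6 and 48.6 FPKM in WT and 36.8, 34.7 and 38 in those labelled AMPKa1-/-, above the vehicle libraries, a rise of 1.45-fold (0.51, SE 0.12, adjusted p = 0.016) and 1.41-fold (0.49, SE 0.12, adjusted p = 0.011). With the compared groups alone the DAMPs rise had adjusted p = 0.29 in WT and 0.061 in those labelled AMPKa1-/-. In WT it also missed the threshold after centring on one median (adjusted p = 0.093) and with WT libraries only (adjusted p = 0.11). It was also lost without vehicle replicate 3 or DAMPs replicate 3 in WT (log2 0.46 and 0.42), and without vehicle replicate 2 or DAMPs replicate 3 in those labelled AMPKa1-/- (0.41 and 0.46).

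Nr1h2 (ENSMUSG00000060601, chr7:44549616-44553951, minus strand) varied least of the 8 genes, from 70.3 to 124 FPKM over all libraries. It had 95.4, 102 and 104 FPKM in WT vehicle, 70.3 and 82.1 with LPS and 72.4, 74.5 and 82.1 with LPS + Dex. For libraries labelled AMPKa1-/- the values were 94.9, 87 and 102 in vehicle, 70.7, 76.2 and 88.3 with LPS and 73.6, 82 and 82 with LPS + Dex. The WT fall with LPS, -0.40 on the log2 scale (SE 0.15, adjusted p = 0.025), passed, but was -0.25 and not called once libraries were centred on one median, and was lost without WT vehicle replicate 2, WT vehicle replicate 3 or WT LPS replicate 2 (-0.38, -0.37 and -0.29). In those labelled AMPKa1-/- the difference of -0.27 did not pass, was 0.01 after that centring, and passed after quantile normalization (-0.33), with the replicate number as a block (adjusted p = 0.044) and without LPS replicate 3 (-0.36). No Dex comparison of Nr1h2 passed, the estimates running from -0.10 to 0.11. In vehicle, mean Nr1h2 FPKM was 100.4 ± 4.46 in WT against 29.6 ± 2.22 for Nr1h3 (mean ± SD, n = 3), whereas with LPS the order was turned, at 76.2 ± 8.3 against 106 ± 1.41 (n = 2). In those labelled AMPKa1-/- with LPS the means were 78.4 ± 9.01 and 68.9 ± 4.82 (n = 3), ranges that overlapped.

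**Figure D2:**
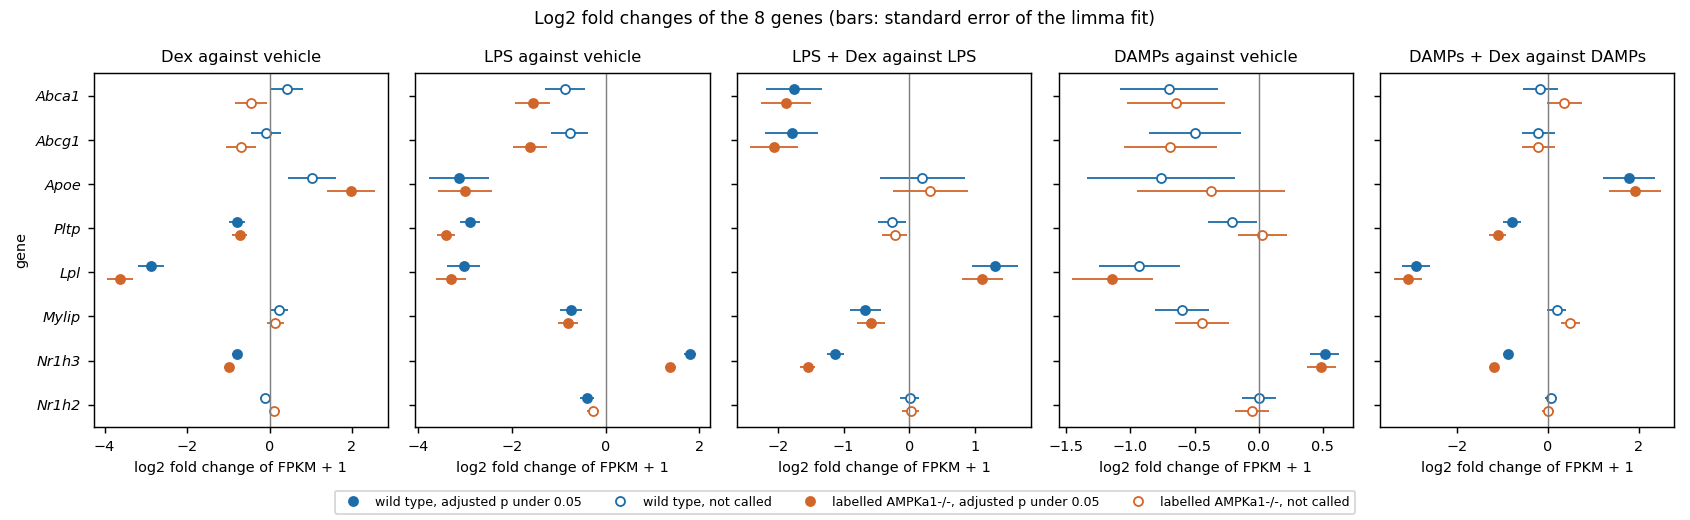
Log2 fold change of FPKM + 1 for each gene (rows) in 5 comparisons (panels), with bars for the standard error of the limma fit; filled points passed an adjusted p of 0.05 and open points did not (blue: WT; orange: labelled AMPKa1-/-). Lpl lies at -2.88 with Dex alone and at 1.30 with Dex on LPS in WT, and Nr1h3 is the gene to the right of 0 with LPS.

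Whether Dex acted differently with and without LPS was tested as the difference of the 2 Dex effects on the log2 scale. In WT 4 members were called, where 32% of all genes were, and in libraries labelled AMPKa1-/- 4, against 28.4%. Lpl had by far the widest gap, 4.18 in WT (SE 0.47, adjusted p = 1.11e-07) and 4.73 in those labelled AMPKa1-/- (SE 0.44, adjusted p = 3.77e-09), that is, a fall without LPS and a rise with it. The exporters went the other way, with Abca1 at -2.18 (SE 0.57, adjusted p = 0.0047) and Abcg1 at -1.71 (SE 0.54, adjusted p = 0.017) in WT. In those labelled AMPKa1-/- they were at -1.43 (adjusted p = 0.049) and -1.37 (adjusted p = 0.044). The latter 2 calls stood at the threshold and were lost with no filter and with no moderation of the variances. Abcg1 was also lost there with quantile normalization, with 1 genotype only and with the compared groups only (adjusted p = 0.072, 0.086 and 0.11). Abca1 was also lost there without vehicle replicate 1 or 2, Dex replicate 1 or 3, LPS replicate 2 or LPS + Dex replicate 1 or 3 (-1.51 to -1.10), and Abcg1 without vehicle replicate 1 or 2, Dex replicate 2 or 3, LPS replicate 2 or LPS + Dex replicate 1 or 2 (-1.47 to -0.97). Leaving out several libraries outside the contrast also ended these 2 calls without moving the values. In WT, Abca1 was lost without LPS replicate 2 (-1.76), and Abcg1 without LPS replicate 3 or LPS + Dex replicate 2 (-1.47 and -1.46). Mylip was called in WT (-0.91, adjusted p = 0.028), a call lost without vehicle or LPS replicate 2 or 3 or LPS + Dex replicate 2 (-0.93 to -0.71) and with no filter (adjusted p = 0.056), and had -0.72 in those labelled AMPKa1-/- (adjusted p = 0.07), which passed after centring on one median (-0.80) or quantile normalization (-0.73). Nr1h3 was called in those labelled AMPKa1-/- (-0.56, adjusted p = 0.0099) and had -0.34 in WT (adjusted p = 0.14), and the former missed the threshold after quantile normalization (-0.45). With the replicate number as a block, Pltp was called too in WT (0.61, adjusted p = 0.033), and in those labelled AMPKa1-/- so were Apoe (-1.65, adjusted p = 0.015) and Mylip (-0.72, adjusted p = 0.048). The latter 2 were also called on leaving out single libraries, Apoe without LPS + Dex replicate 3 labelled AMPKa1-/- (-2.46) and Mylip without Dex replicate 2 of that genotype (-0.85) or WT LPS + Dex replicate 1, which left its value as it was.

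**Figure D3:**
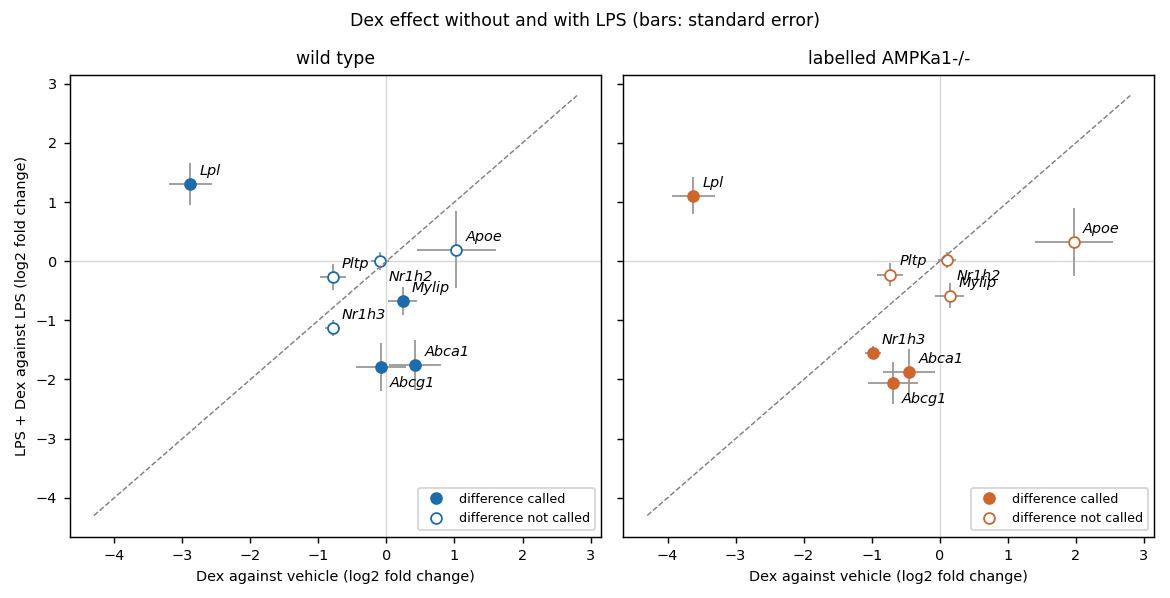
Log2 fold change with Dex in the absence of LPS (x axis) and in its presence (y axis) for the 8 genes, with standard errors as bars and the line of equal effects dashed (left: WT; right: labelled AMPKa1-/-). Filled points had a called difference of the 2 effects; Lpl lies far above the line, and Abca1 and Abcg1 lie below it in both panels.

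The genotypes, as labelled, were compared directly in vehicle only, and their levels in the other treatments were not tested against each other. With LPS + Dex, for instance, Abca1, Abcg1, Nr1h3 and Pltp were lower without overlap in libraries labelled AMPKa1-/-. Apoe, Lpl, Mylip and Nr1h2 overlapped there, and how many of all genes were without overlap was not counted. In vehicle, where 0.432% of all genes were called, none of the 8 was by limma, and 2 had an unadjusted p under 0.05, as had 700 of the 11354 genes. These were Apoe, at -1.32 (SE 0.58, adjusted p = 0.67), and Pltp, at -0.42 (SE 0.19, adjusted p = 0.73), and for both the WT vehicle libraries lay above those labelled AMPKa1-/-. The difference between genotypes in the response to Dex, LPS, Dex on LPS, DAMPs and Dex on DAMPs was called by limma for none of the 8 genes, and for 0% of all genes in each of these 5 tests. At an unadjusted p under 0.05 there were 2441 genes for Dex, 514 for LPS, 311 for Dex on LPS, 66 for DAMPs and 234 for Dex on DAMPs. Among the 8 genes, unadjusted p was under 0.05 for Nr1h3 only, in the LPS response (-0.42, SE 0.17, adjusted p = 0.95) and in the response to Dex on LPS (-0.42, SE 0.17, adjusted p = 1). The calls that were present in only one genotype are therefore not shown to differ between them. Intervals were wide for Apoe, for which the 95% confidence interval of the genotype difference in the Dex response ran from -0.74 to 2.63, and narrow for Nr1h2, from -0.18 to 0.60.

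The genes of LXR partners and cofactors were called with LPS about as often as other genes. Of 10 listed partners and cofactors, 8 passed the filter, of which 5 fell and none rose with LPS in WT, where 55.7% of all genes were called, and 6 fell and none rose in libraries labelled AMPKa1-/-, where 64.3% were. Dex on LPS raised 2 and lowered 1 in WT (34.1% of all genes called), and raised 2 and lowered none in those labelled AMPKa1-/- (37.7%). The median of the list with LPS was -0.82 and -0.97, beside -0.19 and -0.30 for all genes. Rxra, which encodes an obligate LXR partner, went from 59.7 ± 2.17 FPKM in WT vehicle (mean ± SD, n = 3) to 17.8 ± 0.124 with LPS (n = 2) and 26.1 ± 4.13 with LPS + Dex (n = 3), with log2 fold changes of -1.69 for LPS and 0.51 for Dex on LPS (SE 0.14 and 0.14). Rxrb, another partner, went from 70.1 ± 3.29 to 38.8 ± 2.22 and, with LPS + Dex, to 70.3 ± 4.83. Pparg, a lipid-activated receptor that acts upstream of Nr1h3 in macrophages, fell from 36.4 ± 4.91 to 0.664 ± 0.0273 with LPS (-4.48, SE 0.24), and stood at 0.736 ± 0.16 with LPS + Dex. Ppard, a related lipid-activated receptor, fell with Dex on LPS in WT (-0.72, adjusted p = 0.011).

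Other genes listed as LXR targets did not move as one. Of 18 listed, 14 passed the filter, of which LPS raised 6 and lowered 7 in WT (55.7% of all genes called), and raised 5 and lowered 6 in those labelled AMPKa1-/- (64.3%). Dex on LPS raised 3 and lowered 1 in WT (34.1%), and raised 3 and lowered 3 in those labelled AMPKa1-/- (37.7%). Arl4c, a small GTPase gene, was like the exporters lowest with LPS + Dex, with 100.2 ± 6.23 FPKM in WT vehicle, 24.3 ± 3.27 with LPS and 6.54 ± 0.723 with LPS + Dex. Its change with Dex on LPS in WT was -1.75 (SE 0.16, adjusted p = 1.19e-09). Unlike the exporters, Arl4c was also lower without overlap with Dex alone (58.97 ± 3.89 in WT) in both genotypes. The same held for Dex on DAMPs, with 82.97 ± 5.97 in WT DAMPs and 38.8 ± 2.43 in WT DAMPs + Dex. Smpdl3a, an acid phosphodiesterase gene, and Mertk, a receptor for the uptake of dying cells, went the other way and rose with Dex on LPS, by 0.88 and 1.06 (SE 0.15 and 0.21), as they did with Dex alone. The desaturase genes Scd2 and Fads2 rose with LPS in WT, by 3.71 and 2.10 (SE 0.66 and 0.61).

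Nearly all measured genes of sterol uptake and synthesis rose with LPS. Of 14 listed SREBP2 targets 13 passed the filter, of which 12 rose and none fell with LPS in each genotype (55.7% and 64.3% of all genes called), with a list median of 2.52 in WT and 2.71 in those labelled AMPKa1-/-. Dex on LPS lowered 7 of the 13 in WT and 11 in those labelled AMPKa1-/- and raised none (34.1% and 37.7% of all genes called), with medians of -0.62 and -1.02 beside -0.03 and 0.01 for all genes. Against vehicle, 12 of the 13 were higher with LPS + Dex in WT (54.2% of all genes called) and 11 in those labelled AMPKa1-/- (57.4%). The synthesis genes Idi1, Sc5d and Cyp51 rose with LPS in WT by 3.57, 3.24 and 2.84, and fell with Dex on LPS by 0.94, 1.08 and 1.06, all on the log2 scale.

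Genes of cholesterol storage, lysosomal release and oxysterol formation were mixed. Of 13 listed, 11 passed the filter, with 2 raised and 5 lowered by LPS in WT, and 3 raised and 6 lowered in those labelled AMPKa1-/- (55.7% and 64.3% of all genes called). The 2 oxysterol-forming enzymes named here moved in opposite directions. Ch25h, cholesterol 25-hydroxylase, rose from 1.51 ± 1.28 FPKM in WT vehicle to 52.9 ± 24.8 with LPS and was 0.0726 ± 0.0639 with LPS + Dex, a log2 fold change with Dex on LPS of -5.57 (SE 0.34). Cyp27a1, sterol 27-hydroxylase, fell from 121 ± 13.3 to 0.783 ± 0.0346 and was 3.63 ± 1.15 with LPS + Dex, a rise of 1.35 (SE 0.22). Npc2, which moves cholesterol out of the lysosome, fell with Dex on LPS from 387 ± 56.3 to 150.4 ± 19.1 (-1.36, SE 0.18). On the log2(FPKM + 1) scale the changes of genes near 0, such as Ch25h with LPS + Dex, are understated.

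Of 15 listed lipoprotein receptors and lipase partners 10 passed the filter, of which LPS raised 3 and lowered 6 in each genotype (55.7% of all genes called in WT and 64.3% in those labelled AMPKa1-/-). Dex on LPS raised 2 and lowered 2 in WT (34.1%) and raised 4 and lowered 2 in those labelled AMPKa1-/- (37.7%). Abca9, an ABC transporter related to Abca1, fell from 16.6 ± 3.73 FPKM in WT vehicle to 0.258 ± 0.0562 with LPS, and rose with Dex alone to 65.3 ± 12. Angptl2, a secreted angiopoietin-like factor, fell with LPS by 3.58 and with Dex on LPS by 0.86 on the log2 scale in WT. Lrp8, a receptor for apolipoprotein E, rose with LPS by 0.86 and fell with Dex on LPS by 0.89.

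**Figure D4:**
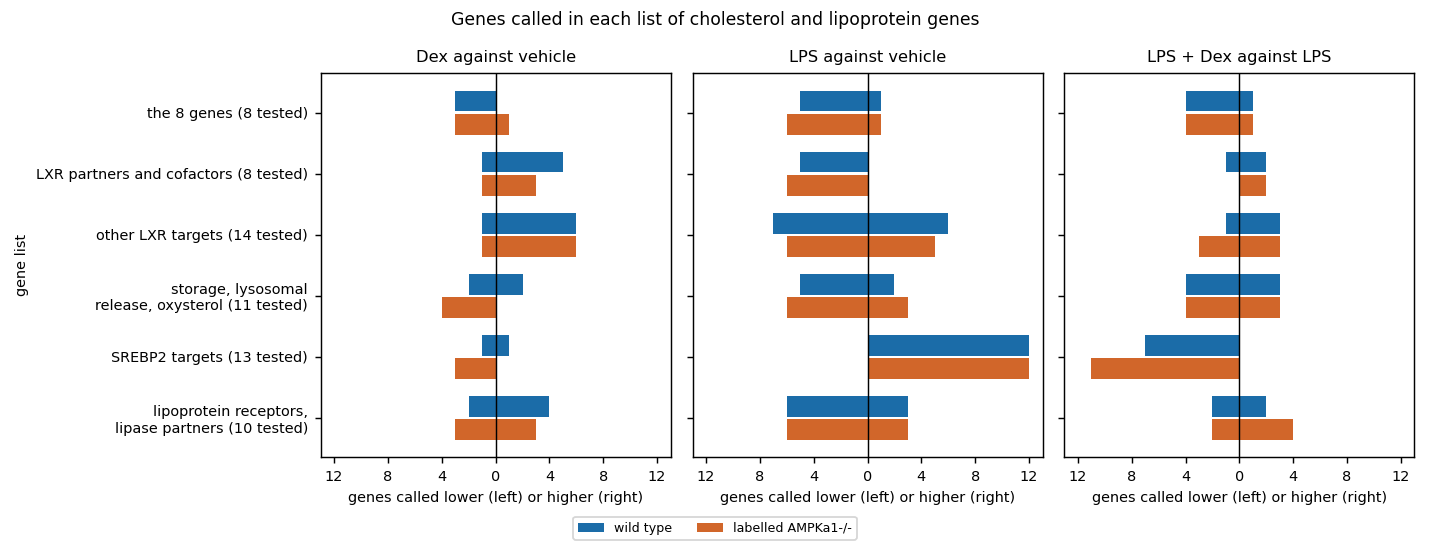
Number of genes called lower (left of 0) and higher (right of 0) in 6 lists of cholesterol and lipoprotein genes, for 3 comparisons (blue: WT; orange: labelled AMPKa1-/-). The SREBP2 targets stand out, with 12 of 13 higher with LPS in each genotype and 7 (WT) or 11 (labelled AMPKa1-/-) lower with Dex on LPS.

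All 8 macrophage markers had a mean of at least 1 FPKM, with Lyz2 the most abundant at a mean of 24097 FPKM and a summed level of 12951 to 39177. LPS lowered 5 of the 8 and raised 2 in WT (55.7% of all genes called), and lowered 5 and raised 2 in those labelled AMPKa1-/- (64.3%). Several markers of other cells moved with LPS. The neutrophil list summed to 133 and 113 FPKM in WT LPS and 95.9, 98.1 and 118 in LPS labelled AMPKa1-/-, to 34.9, 32.9 and 52.2 and 28, 25.4 and 37.5 with LPS + Dex, and to 10.2, 0.527 and 1.86 and 15.6, 10.1 and 2.16 in vehicle. Its most abundant gene was the granule gene Camp, while Ly6g, Mpo, Elane, Prtn3 and Cxcr2 were below 1 FPKM in all 35 libraries. The endothelial list summed to 45.2 and 53.1 FPKM in WT LPS, 16.9, 33.2 and 49.2 in LPS labelled AMPKa1-/-, and at most 5.50 in any library of another treatment. That level was Kdr, with Cdh5, Tie1 and Emcn below 1 in all libraries. The T cell list summed to 1.25 and 0.767 FPKM in WT LPS and 0.728, 0.676 and 0.685 in LPS labelled AMPKa1-/-, below vehicle at 18, 15.9 and 15.6 and 11.2, 11.6 and 6.65. That level was Cd4, with Cd3e, Cd3d, Cd8a and Trac below 1 in all libraries. With DAMPs the T cell list summed to 35, 22.7 and 29.1 in WT and 16.2, 20.2 and 20.6 in those labelled AMPKa1-/-, above vehicle without overlap. With DAMPs + Dex it summed to 16.1, 7.39 and 6.46 and 6.59, 5.77 and 7.31, below DAMPs without overlap. Fibroblast markers, led by Col1a2, differed between some groups. Their sum in WT was 18.3, 1.49 and 9.76 FPKM in vehicle, 11.9, 15.1 and 24.7 with Dex, 5.19, 1.34 and 8.22 with DAMPs and 9.42, 14.1 and 18.5 with DAMPs + Dex. It was 1.16, 2.77 and 1.38 in vehicle labelled AMPKa1-/-, 3.9, 4.52 and 2.99 with Dex, 1.94, 3.12 and 1.73 with DAMPs and 4.39, 3.74 and 2.0 with DAMPs + Dex. With LPS it was 13.7 and 16.4 in WT and 7.08, 11 and 8.05 in those labelled AMPKa1-/-. With LPS + Dex it was 9.33, 2.64 and 8.22 in WT and 3.39, 6.05 and 1.41 in those labelled AMPKa1-/-. The sum was thus higher with Dex, without overlap, for Dex against vehicle labelled AMPKa1-/- and for DAMPs + Dex against DAMPs in WT. It was lower with Dex on LPS, without overlap, in both genotypes, as were Abca1, Abcg1, Mylip and Nr1h3. It was higher with LPS than with vehicle in those labelled AMPKa1-/-, and the WT values of these 2 groups overlapped. Adipocyte, erythroid, and mast cell or basophil markers were below 1 in every library, and the B cell and dendritic cell lists summed to at most 3.19 and 1.94. Adipoq and Plin1, which mark another cell type rich in Lpl, were thus at or near 0, and the part of the moving markers in the results was not tested.

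Genes with the course most like each member were sought by Pearson's correlation of log2(FPKM + 1) over the 35 libraries. The search ran among 8590 genes whose FPKM averaged 5 or more, and the members themselves were left out of the ranking. The libraries share treatments, cultures and depth, so these are descriptions of likeness. For Pltp they were Pla2g15 (r = 0.98), Trem2 (0.97), a lipid-sensing receptor of macrophages, and Pparg (0.97). For Nr1h3 they were Dhx58 (0.92), Tmcc3 (0.91) and Uba7 (0.91), of which Dhx58 and Uba7 are known as interferon-induced genes. Abca1 was like Smc5 (0.93) and Iars2 (0.93), and Abcg1 like Gas2l3 (0.91), Rap2a (0.91) and the macrophage transcription factor gene Irf8 (0.89). Apoe was most like Ccdc163 (0.94), Rhbdd3 (0.94) and Trpv4 (0.93). Lpl was like Arhgef7 (0.92) and Sirpa (0.90). Outside the members, Mylip was most like Cep120 (0.93), Exd2 (0.92) and Tmem87a (0.91), and Nr1h2 like Map1s (0.90), Arrdc1 (0.90) and Zfpl1 (0.90). Between members, Abca1 had r = 0.930 with Mylip and 0.934 with Abcg1, above the genes listed for Mylip and Abcg1.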

How the data were processed

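The authors deposited 1 table of FPKM per library, each already scaled by transcript length and library size. The submitters' processing notes name TopHat2 2.0.12, Bowtie2 2.2.3, HTSeq 0.6.1, DESeq2 and the builds GRCm38 and mm10, without their roles. Groups and replicate numbers came from the labels, and the study's methods count a culture from 1 mouse as 1 replicate. WT LPS replicate 1 was not analysed here.

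Gene symbols were attached to 46574 identifiers, positions came from GENCODE M21 (GRCm38) and promoter windows from RefSeq (GRCm38.p6). A linear model with 12 group means (23 residual degrees of freedom) was fitted to log2(FPKM + 1) of the 11354 genes averaging 1 FPKM or more, in limma 3.58.1 (R 4.3.3), with empirical Bayes variances. Adjustment (Benjamini-Hochberg) ran over all these genes, with a threshold of 0.05. Fold ratios are ratios of mean FPKM. Fold changes on the log2(FPKM + 1) scale understate those of low genes. The fit was tested on simulated data.

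FPKM values of low genes rise in steps of 1 fragment. Those steps gave the library totals, but only 55.3% to 63.9% of values under 10 fragments came out whole within 0.001, so no count test was run. Libraries of a group correlated at 0.967 to 0.993, and 0 pairs were identical.

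The 8 genes, the 7 gene lists and the 10 marker lists were chosen with earlier results of these data known, so their counts are descriptions. List genes named in the text were those with the largest change with Dex on LPS or with LPS, up to 3 and 2 per list, among called genes. The most alike genes were the 3 of highest correlation per member among genes other than the 8 members. A few genes that these rules name are not reported here. The fit was repeated without the filter, with a filter at 5 FPKM, with 0.1 in place of 1 as pseudocount, with libraries centred on one median or quantile normalized, on 1 genotype or the compared groups only, with unmoderated variances, with a block for the replicate number, and with each library left out in turn. Tables were handled in Python 3.11.15 with pandas 2.3.3.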

Additional observations from a re-analysis of the deposited data

How the results depend on the processing

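Of the tested values of the 8 genes, 85 were followed under 3734 combinations of value and alternative. They were those with an unadjusted p under 0.05 by limma, those called under some alternative, and a few uncalled ones chosen by name. Other uncalled values were left out, so the counts hold for these 85 only. Of the 3734 combinations, 3620 kept direction and side of the threshold, 89 lost a call, 20 gained one and 5 changed sign. The sign changes were of uncalled values. Apoe with Dex on LPS labelled AMPKa1-/- became -0.17 on leaving out LPS replicate 1, -0.02 for LPS replicate 2 and -0.48 for LPS + Dex replicate 3 (range of all such fits -0.48 to 1.16). In WT it became -0.19 on leaving out LPS + Dex replicate 3 (range -0.19 to 0.41). Nr1h2 with LPS labelled AMPKa1-/- became 0.0053 after centring on one median. The cause was not tested.

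With DAMPs, 0 of the 8 genes were called in WT after centring, with 1 genotype only or with the compared groups only, and 1 in libraries labelled AMPKa1-/- with no filter, centring, the compared groups only or no moderation. For the difference of the Dex effects with and without LPS, 2 were called in those labelled AMPKa1-/- with no filter or no moderation. Leaving out 1 library gave 3 to 5 called genes for Dex on LPS in WT, 0 to 1 for DAMPs in WT and 0 to 2 in those labelled AMPKa1-/-, and 2 to 4 and 2 to 5 for the difference of the Dex effects.

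With the replicate number as a block, 4 of the 8 genes were called for Dex in WT (Apoe added), 8 for LPS labelled AMPKa1-/- (Nr1h2 added), and 5 in WT and 6 in those labelled AMPKa1-/- for the difference of the Dex effects, and the block changed no other call of the 8. Same-numbered libraries deviated together in 25 of 40 WT pairs and 29 of 45 labelled AMPKa1-/- (correlation over 0.1, lowest -0.465 and -0.494), and 14 of 17 and 14 of 18 libraries correlated best with their own number, a hint from the data, as the labels do not say what a number marks.

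Among all genes, the count called for Dex on LPS in WT was 3871, and 2065 with the compared groups only. For DAMPs in WT it was 228, 94 with 1 genotype only, 1 with the compared groups only, and 114, 81, 372 and 26 without vehicle replicate 1 or 3 or DAMPs replicate 2 or 3. For DAMPs labelled AMPKa1-/- it was 469, and 267, 272, 311 and 269 without vehicle replicate 2 or 3 or DAMPs replicate 1 or 3. Between the genotypes in vehicle it was 49, 92 with no filter, 27 with a filter at 5 FPKM, 19 with the compared groups only, and 28, 31, 32 and 28 without WT vehicle replicate 1 or 3 or vehicle replicate 1 or 2 labelled AMPKa1-/-. The 5 counts of 0 for genotype differences in response became 21 (Dex), 118 (LPS), 75 (Dex on LPS), 2 (DAMPs) and 9 (Dex on DAMPs) with no filter, and at most 13 (LPS, without WT LPS replicate 2) under the other alternatives. Centring and quantile normalization moved the share of higher calls for LPS from 35.7% to 46.3% and 45.8% in WT and from 31.4% to 49.0% and 46.2% in those labelled AMPKa1-/-, and for LPS + Dex against vehicle from 31.7% to 50.3% and 49.9% and from 29.0% to 50.9% and 49.8%. Centring also moved it from 46.5% to 56.7% for the difference of the Dex effects in WT and from 45.8% to 55.6% for DAMPs labelled AMPKa1-/-, and quantile normalization from 42.8% to 53.0% for Dex labelled AMPKa1-/-.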
